A study of Mus musculus with 2 samples.

Results

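Cadherins are calcium-dependent adhesion proteins that hold cells together by binding cadherins on the neighbouring cell, and the non-clustered protocadherins are relatives of theirs that are found mostly in the nervous system. These genes were taken from the list of all measured genes by symbol alone, as *Cdh* or *Pcdh* followed by a number, a rule that uses no measured value, although the family itself was chosen with earlier results of these data known. The rule found 35 of 24411 genes, 23 cadherins and 12 protocadherins. They were read in 2 libraries made by laser capture microdissection and bulk RNA-seq from fresh-frozen mouse brain at embryonic day 16.5, 1 from the subventricular zone (SVZ), a germinal layer in which neural progenitors divide, and 1 from the cortex, in which their neuronal progeny settle. Neither the labels nor the methods name a strain, genotype or treatment for the embryos, and how many embryos went into each library is not given in the sources used here.

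Classical cadherins reach with their tails to the catenins, which tie the junction to actin. Type I members such as N-cadherin build the adherens junctions of the ventricular surface, and type II members are known for expression that differs between brain regions, nuclei and layers. T-cadherin has no such tail and is held to the membrane by a lipid anchor. The delta protocadherins, in their delta-1 and delta-2 groups, are known for roles in axon growth, cell sorting and synapse formation. The comparison asks which of these adhesion genes differ between a progenitor layer and the neuronal tissue above it.

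The libraries held 51435667 (SVZ) and 22050693 (cortex) reads assigned to genes. With 1 library an area there is no replicate and no test. Values are reads and CPM (counts per 1000000 gene-assigned reads). Each log2 ratio sets SVZ over cortex and is followed in brackets by the exact 95% Clopper-Pearson interval of the read counts, which leaves out variation between animals and dissections and treats PCR copies as separate molecules. The area labels were checked on cell type markers, and whether the SVZ piece also held tissue nearer the ventricle was not tested. All 8 apical progenitor markers and all 6 intermediate progenitor markers were at least 4-fold higher in the SVZ. All 9 genes of a neuronal list, mostly markers of deep-layer and subplate neurons, were higher in the cortex, 6 of them by at least 4-fold. Closest to even were *Neurod2* (log2 ratio -0.69) and *Neurod6* (-0.81), which are not particular to those layers. The SVZ library was not free of neuronal transcripts, since the neuronal list summed to 2488 CPM there and to 5985 CPM in the cortex. *Neurod6* alone gave 1592 and 2797 CPM of these sums. In such bulk pieces fewer cells of a type and less RNA per cell cannot be told apart.

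Of the 35 members, 24 averaged 1 CPM or more. Among these, 3 were at least 4-fold higher in the SVZ (*Cdh20*, *Pcdh12* and *Pcdh18*) and 4 were at least 4-fold higher in the cortex (*Cdh13*, *Cdh9*, *Cdh12* and *Pcdh7*). That is 12.5% and 16.7% of the members, beside 10.2% and 7.01% of the 12738 genes that averaged 1 CPM or more. *Cdh20*, *Pcdh12*, *Cdh9* and *Cdh7* were under 1 CPM in 1 of the libraries and so passed the minimum through the other. A further 3 members were between 2-fold and 4-fold higher in the SVZ (*Cdh4*, *Pcdh10* and *Pcdh11x*) and 4 in the cortex (*Pcdh9*, *Cdh11*, *Pcdh19* and *Pcdh20*), which left 10 members, or 41.7%, within 2-fold, beside 64.4% of all genes. The median log2 ratio was -0.29 over the members, with quartiles of -1.32 and 0.91, and 0.11 over all genes, with quartiles of -0.56 and 0.76. The members thus lay on both sides of equality, 11 higher in the SVZ and 13 in the cortex, a split not counted for all genes. For 23 of the 24 the counting interval did not hold 0, a count that depends on read depth and was not made for all genes. Summed over the members, 58393 reads (0.114% of gene-assigned reads) came from the SVZ library and 49894 (0.226%) from the cortex library. The largest parts of the cortex sum were *Pcdh9* with 15342 reads and *Cdh13* with 10634, beside 10048 and 284 reads in the SVZ.

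**Figure D1:**
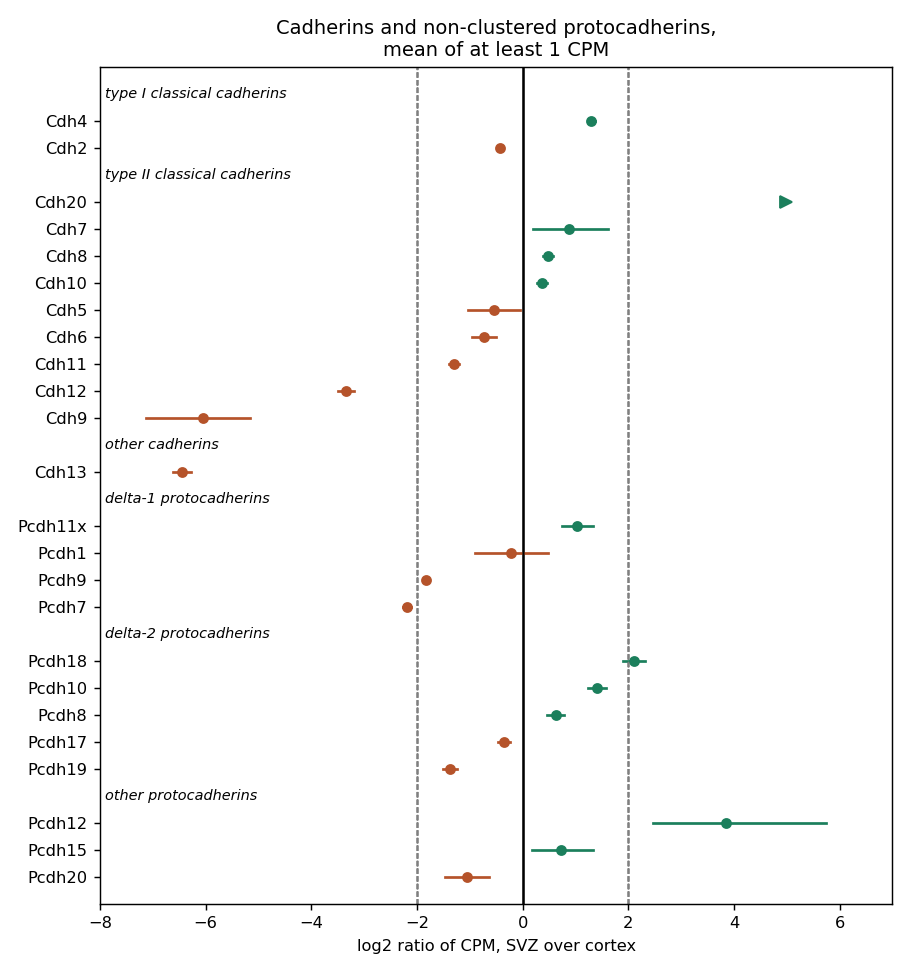
Log2 ratio of CPM, SVZ over cortex, for the 24 members averaging 1 CPM or more, by subfamily; green is higher in the SVZ and brown in the cortex. Points are ratios, lines exact 95% counting intervals, the arrowhead of *Cdh20* a lower bound, and dashed lines mark 4-fold; *Cdh13* and *Cdh9* lie farthest to the cortex side, at -6.45 and -6.05.

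Among the type I classical cadherins, *Cdh4* and *Cdh2* were the only ones that averaged 1 CPM or more over both libraries. *Cdh2*, N-cadherin, the main cadherin of neural adherens junctions, had 12362 reads (240.3 CPM) in the SVZ and 7105 reads (322 CPM) in the cortex. It was high in both, with a log2 ratio of -0.42 (-0.47 to -0.38). *Cdh4* (chromosome 2, 179442431 to 179899373), R-cadherin, had 12592 reads (245 CPM) in the SVZ and 2191 reads (99.4 CPM) in the cortex, a log2 ratio of 1.30 (1.24 to 1.37). The balance between the pair therefore differed between the areas, whatever the scaling of the libraries. *Cdh4* took 50.5% (49.8 to 51.1) of the reads of both genes in the SVZ and 23.6% (22.7 to 24.4) in the cortex.

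The other type I members were read rarely or not at all. *Cdh1*, E-cadherin of epithelia, had no read in either library, and 0 counted reads leave room for 3, or 0.0583 CPM in the SVZ and 0.136 CPM in the cortex. *Cdh3*, P-cadherin, had 18 reads in the SVZ and 0 in the cortex, a difference of at least 2.57-fold with 3 reads in place of 0. The counting error of the 18 reads brings the lower limit to 0.91 on the log2 scale. *Cdh15*, M-cadherin of muscle, had 10 and 30 reads, or 0.194 and 1.36 CPM, at a log2 ratio of -2.81 (-4.00 to -1.74).

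The type II cadherins lay on both sides. Of 13 members 9 averaged 1 CPM or more, 4 of them higher in the SVZ and 5 in the cortex. *Cdh9* (chromosome 15, 16728756 to 16857094), a type II cadherin known from cell-type-specific synapses, was read 10 times (0.194 CPM) in the SVZ and 285 times (12.9 CPM) in the cortex. Its log2 ratio of -6.05 (-7.13 to -5.15) rests on those 10 reads, and it was -7.15 with the SVZ library thinned to the cortex depth and -3.54 with a pseudocount of 1 CPM, past 4-fold in each case. *Cdh12* (chromosome 15, 20449265 to 21589533), brain cadherin, had 416 reads (8.09 CPM) and 1812 reads (82.2 CPM), a log2 ratio of -3.34 (-3.50 to -3.19), or 10.2-fold more in the cortex. *Cdh11*, also expressed in mesenchyme, had 1715 reads (33.3 CPM) and 1811 reads (82.1 CPM) and a log2 ratio of -1.30 (-1.40 to -1.20). For *Cdh6*, which marks regional borders in the early forebrain, 362 reads (7.04 CPM) and 258 reads (11.7 CPM) gave -0.73 (-0.97 to -0.50).

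On the SVZ side, *Cdh20* (chromosome 1, 104768529 to 104995481) had 221 reads (4.30 CPM) in the SVZ and none in the cortex, a difference of at least 31.6-fold (3 reads in place of 0), with a lower limit of 4.67 on the log2 scale. *Cdh8*, known from layer- and region-specific expression in the cortex, and *Cdh10* were abundant in both libraries and leaned towards the SVZ. *Cdh8* had 4523 reads (87.9 CPM) and 1393 reads (63.2 CPM), a log2 ratio of 0.48 (0.39 to 0.56). *Cdh10* had 3872 reads (75.3 CPM) and 1286 reads (58.3 CPM), a log2 ratio of 0.37 (0.28 to 0.46). *Cdh7*, with 94 reads (1.83 CPM) and 22 reads (0.998 CPM), had a wide interval around 0.87 (0.19 to 1.61). Of the type II members under 1 CPM, *Cdh18* had 4 and 30 reads, at a log2 ratio of -4.13 (-6.09 to -2.62), *Cdh24* had 19 and 5 reads and an interval that held 0, and *Cdh19* had 9 reads and *Cdh22* 5 reads in the SVZ with none in the cortex. *Cdh19* is a cadherin of Schwann cells and their precursors, and of 5 markers for those and olfactory ensheathing cells none reached 1 CPM, with sums of 24 reads in the SVZ and 39 in the cortex.

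*Cdh5*, VE-cadherin, is the type II member of the vessel wall and was set beside the endothelial list. It had 94 reads (1.83 CPM) in the SVZ and 59 reads (2.68 CPM) in the cortex, a log2 ratio of -0.55 (-1.03 to -0.06). *Pcdh12*, another adhesion protein of endothelial cells, went the other way, with 135 reads (2.62 CPM) and 4 reads (0.181 CPM), 14.5-fold more in the SVZ and a log2 ratio of 3.85 (2.47 to 5.75). With a pseudocount of 1 CPM its log2 ratio was 1.62, under 4-fold. The 10 endothelial markers summed to 86.1 CPM in the SVZ and 72.2 CPM in the cortex. Of the 9 above 1 CPM, 6 were higher in the SVZ and 3 in the cortex, none by 4-fold, from *Cldn5* at 0.87 to *Flt1* at -1.26 on the log2 scale, with *Pecam1* at 9.74 and 8.12 CPM. The tenth, *Erg*, had 39 reads in the SVZ and 1 in the cortex, a log2 ratio of 4.06 in the same direction as *Pcdh12*. The part of vessel content in the ratio of *Pcdh12* was not tested.

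*Cdh13* (chromosome 8, 118283733 to 119324921), T-cadherin, was far higher in the cortex. It had 284 reads (5.52 CPM) in the SVZ and 10634 reads (482 CPM) in the cortex, an 87.3-fold difference and a log2 ratio of -6.45 (-6.62 to -6.28). The study lists it among its curated cortical markers, so its direction is not an independent observation. Its rank against *Cdh9* is not fixed, since the interval of *Cdh9* holds this ratio and with the SVZ library thinned *Cdh13* was at -6.39 and *Cdh9* at -7.15. Set against N-cadherin within each library, *Cdh13* took 2.25% (1.99 to 2.52) of the reads of both genes in the SVZ and 59.9% (59.2 to 60.7) in the cortex. The other members outside the classical types were hardly read. *Cdh17*, the liver-intestine cadherin, had 62 reads in the SVZ and 0 in the cortex, at least 8.86-fold more, with a lower limit of 2.81 on the log2 scale. *Cdh23*, a component of the hair-cell tip link, had 4 and 0 reads, and both *Cdh16*, the kidney cadherin, and *Cdh26* were at 0 in both libraries.

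Markers of other cells were uneven as well. The 8 microglial markers were all higher in the SVZ (66.4 against 6.94 CPM in sum), as were 8 of 9 of the ventral telencephalon and interneurons (160 against 99.997 CPM), while the list for pericytes and meninges was split 4 to 4 (95.8 against 72.6 CPM). Its cortex side held *Col3a1* (log2 ratio -3.22), *Lum* (-1.64), *Dcn* (-0.97) and *Abcc9* (-0.16). *Rgs5*, on its SVZ side, alone gave 69.6 and 45.5 CPM of the sums. Choroid plexus markers also stood on the SVZ side. The 7 genes of that list summed to 247 CPM in the SVZ and 0.907 CPM in the cortex, nearly all from *Ttr* (240.4 and 0.726 CPM), with *Folr1* at 2.74 CPM and 0 reads and *Kl* at 0 in both. Whether such tissue contributed to the low counts of *Cdh17*, *Cdh3* or *Cdh20* was not tested.

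Of the 4 delta-1 protocadherins 3 were higher in the cortex. *Pcdh9* had 10048 reads (195 CPM) in the SVZ and 15342 reads (696 CPM) in the cortex, 3.56-fold more and a log2 ratio of -1.83 (-1.87 to -1.80). *Pcdh7*, whose cytoplasmic tail can bind a protein phosphatase, had 2205 reads (42.9 CPM) and 4312 reads (196 CPM), a log2 ratio of -2.19 (-2.26 to -2.12), with the whole interval past 4-fold. The X-linked *Pcdh11x* was the exception in direction, with 577 reads (11.2 CPM) and 121 reads (5.49 CPM) and a log2 ratio of 1.03 (0.75 to 1.33). A difference in *Pcdh1* was not detectable at this depth, with 56 and 28 reads, 1.09 and 1.27 CPM, and an interval of -0.90 to 0.49.

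The 5 delta-2 protocadherins, several of which recruit the actin-regulating WAVE complex, formed a graded series, 3 higher in the SVZ and 2 in the cortex. *Pcdh18* had 2061 reads (40.1 CPM) in the SVZ and 206 reads (9.34 CPM) in the cortex, a log2 ratio of 2.10 (1.89 to 2.31). It lay just past 4-fold, with part of its interval below, and was at 1.99 with a pseudocount of 1 CPM. *Pcdh10*, which is needed for axon tracts through the ventral forebrain, had 2051 reads (39.9 CPM) and 331 reads (15.0 CPM), a log2 ratio of 1.41 (1.24 to 1.58). *Pcdh8*, an activity-regulated protocadherin, had 1495 reads (29.1 CPM) and 416 reads (18.9 CPM), a log2 ratio of 0.62 (0.47 to 0.78). For *Pcdh17*, 1928 reads (37.5 CPM) and 1056 reads (47.9 CPM) gave -0.35 (-0.46 to -0.24). *Pcdh19*, the X-linked gene mutated in an epilepsy that mainly affects girls, had 925 reads (17.98 CPM) and 1030 reads (46.7 CPM), a log2 ratio of -1.38 (-1.51 to -1.25). Neighbours in this series differed beyond their counting intervals. Outside the delta groups, *Pcdh20* was higher in the cortex, with 104 reads (2.02 CPM) and 93 reads (4.22 CPM) and a log2 ratio of -1.06 (-1.48 to -0.64), and *Pcdh15*, the partner of *Cdh23* in the tip link, had 132 reads (2.57 CPM) and 34 reads (1.54 CPM) and a log2 ratio of 0.73 (0.18 to 1.32).

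The stretch before the gene start is shown for the members that were at least 2-fold apart, since these are the genes whose transcripts separate the areas. RefSeq entries on GRCm38 were found for 22 members by symbol. Stretches are shown for 7 of the 14 members at least 2-fold apart. *Pcdh12*, higher in the SVZ, was left out because of its chromosome, whatever its entry. Each of the 7 had an entry whose 120 bases upstream touched no annotated part of the same gene. These bases lie before the RefSeq start, or for *Pcdh18* and *Pcdh7* before the GENCODE start, which lies farther upstream. Whether the 7 stretches touched another annotated gene was not tested. They are written 5′ to 3′ along the gene, with capitals for matches, on either strand, to 4 motifs that do not overlap one another: the TATA box (TATAAA), the CCAAT box (its name spells it), the GC box (GGGCGG) and an E-box (CAGGTG). The first 3 were higher in the SVZ and the last 4 in the cortex.
Cdh20, chr1:104768400-104768519, plus strand: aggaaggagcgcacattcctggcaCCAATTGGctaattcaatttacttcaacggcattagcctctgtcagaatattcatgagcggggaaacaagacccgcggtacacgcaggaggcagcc
Pcdh10, chr3:45378278-45378397, plus strand: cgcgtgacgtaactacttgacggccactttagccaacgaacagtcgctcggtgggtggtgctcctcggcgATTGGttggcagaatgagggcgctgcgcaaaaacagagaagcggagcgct
Pcdh18, chr3:49757326-49757445, minus strand: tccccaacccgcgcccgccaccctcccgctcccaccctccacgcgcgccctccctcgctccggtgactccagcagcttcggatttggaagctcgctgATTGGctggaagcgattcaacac
Pcdh7, chr5:57717847-57717966, plus strand: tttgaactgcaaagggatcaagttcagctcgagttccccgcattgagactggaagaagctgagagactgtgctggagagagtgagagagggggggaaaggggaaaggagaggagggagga
Pcdh9, chr14:93890680-93890799, minus strand: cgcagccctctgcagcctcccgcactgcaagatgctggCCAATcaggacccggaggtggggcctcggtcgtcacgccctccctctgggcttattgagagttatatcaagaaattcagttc
Pcdh19, chrX:133688994-133689113, minus strand: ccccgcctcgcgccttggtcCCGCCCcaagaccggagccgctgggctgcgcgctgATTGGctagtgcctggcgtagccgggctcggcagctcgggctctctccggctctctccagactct
Pcdh20, chr14:88471397-88471516, minus strand: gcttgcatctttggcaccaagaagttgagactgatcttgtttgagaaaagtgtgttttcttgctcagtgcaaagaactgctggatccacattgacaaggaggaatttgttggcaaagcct
CCAAT was found in 5 of the 7 stretches, in *Cdh20* once on each strand with overlap, beside 21.3% of the 32851 promoter entries of that length. That background took every entry as it stands. It had no choice of 1 entry a gene, no overlap filter and no shift as for *Pcdh18* and *Pcdh7*. Among the 7, all 3 stretches of genes higher in the SVZ and 2 of the 4 of genes higher in the cortex held it. GGGCGG was in 1 stretch, that of *Pcdh19* (26.5% of all entries), and TATAAA (6.34%) and CAGGTG (8.43%) in none. These matches describe the letters and are not measured binding sites.

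To compare genes with one another, CPM was divided by the exon length of each gene in GENCODE. In the SVZ library the 5 highest members per length were *Cdh4* (33.7 CPM per kilobase), *Cdh2* (29.8), *Pcdh9* (28.8), *Cdh8* (11.4) and *Cdh10* (7.49), which together held 75.8% of the summed level of all members. In the cortex library they were *Pcdh9* (102.6 CPM per kilobase), *Cdh13* (42.9), *Cdh2* (39.9), *Pcdh7* (18.4) and *Cdh4* (13.7), with 78.6%. *Cdh2*, *Cdh4* and *Pcdh9* stood in both sets. By subfamily, type I cadherins held 43.4% of the members' level per length in the SVZ and 19.5% in the cortex, and delta-1 protocadherins 23.0% and 43.9%. Type II cadherins held 18.1% and 15.3%, delta-2 protocadherins 14.3% and 5.42%, and the group of *Cdh13* 0.522% and 15.5%, the last of which was 26.4% with the longest transcript as length. With that length type II cadherins held 24.6% and 16.0%, and delta-1 protocadherins 18.1% and 32.5%, so their order in the SVZ changed. These levels depend on the length used. With the longest transcript of each gene in place of all its exons, the same 5 genes led in each library, but *Cdh2* (49.6) passed *Cdh4* (38.3) in the SVZ, and *Cdh13* (105.6) came level with *Pcdh9* (106.7) in the cortex.

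**Figure D2:**
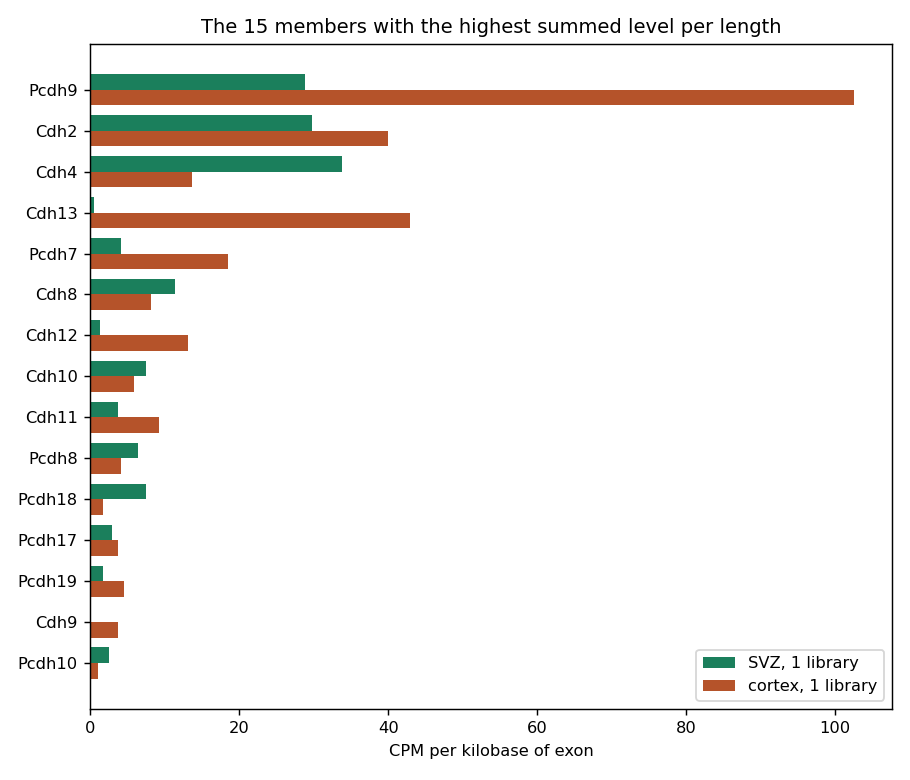
CPM per kilobase of exon in the SVZ library (green) and the cortex library (brown), 1 library each and hence no error bars, for the 15 members with the highest sum. *Cdh4* and *Cdh2* lead in the SVZ and *Pcdh9*, *Cdh13* and *Cdh2* in the cortex, where *Pcdh9* reaches 102.6.

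Many of these genes lie in groups along a chromosome, a property that the rule did not use. On chromosome 15 the type II genes stand in the order *Cdh6*, *Cdh9*, *Cdh10*, *Cdh12* and *Cdh18*, and of these *Cdh10* alone was higher in the SVZ, between *Cdh9* (-6.05) and *Cdh12* (-3.34). *Cdh10* took 90.3% (89.4 to 91.2) of the reads of *Cdh10* and *Cdh12* in the SVZ and 41.5% (39.8 to 43.3) in the cortex. Among the protocadherins of chromosome 14 the ratio fell along the order *Pcdh8*, *Pcdh17*, *Pcdh20* and *Pcdh9*, from 0.62 to -1.83. *Cdh24*, also on that chromosome, was at 0.70 with an interval that held 0. The group on chromosome 1 had *Cdh20* and *Cdh7* higher in the SVZ, and *Cdh19* with 9 and 0 reads. *Pcdh10* and *Pcdh18*, neighbours among the members on chromosome 3, were both higher in the SVZ. On chromosome 8, *Cdh8* and *Cdh11* leaned to opposite sides, with *Cdh8* at 72.5% (71.4 to 73.6) of the reads of the pair in the SVZ and 43.5% (41.8 to 45.2) in the cortex. Farther along, *Cdh5* (-0.55), *Cdh13* (-6.45) and *Cdh15* (-2.81) were on the cortex side, and *Cdh3* had reads in the SVZ only. With so few genes in each group, the order is a description only.

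**Figure D3:**
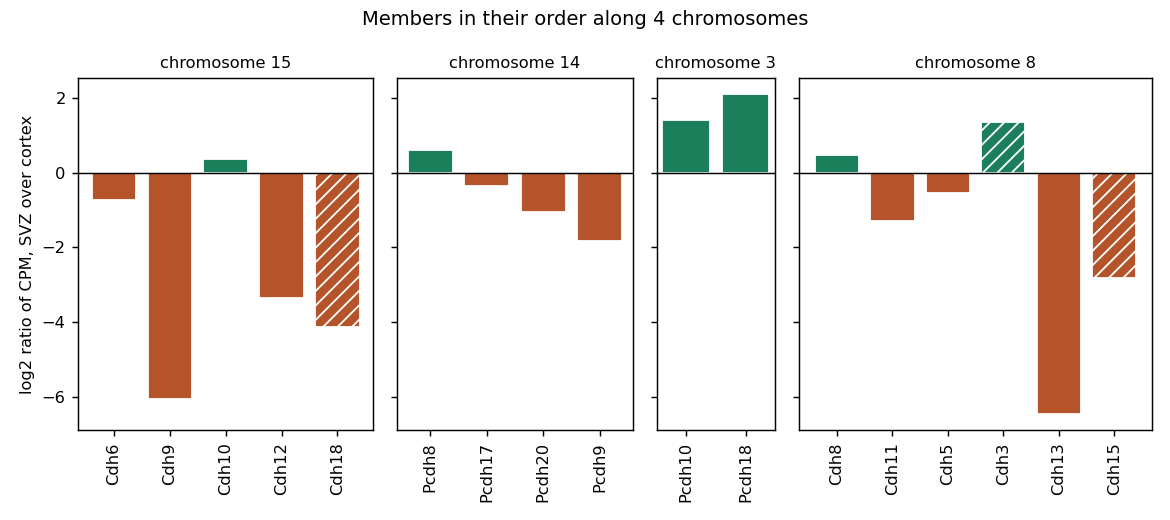
Log2 ratio of CPM, SVZ over cortex, for members in their order along chromosomes 15, 14 (protocadherins only), 3 and 8; green is higher in the SVZ and brown in the cortex. Hatched bars have a mean under 1 CPM, the bar of *Cdh3* is a lower bound, and *Cdh10* rises above 0 between *Cdh9* and *Cdh12*.

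The proteins that work with the cadherins were then examined from lists of 56 genes, of which 54 were found and 43 averaged 1 CPM or more. Of these 43, 4 were at least 4-fold higher in the SVZ and 5 in the cortex, or 9.30% and 11.6%, near the 10.2% and 7.01% of all genes. In all, 15 were higher in the SVZ and 28 in the cortex. This split was not counted for all genes, whose median log2 ratio was 0.11. *Ctnna1*, the alpha-catenin of epithelia and progenitors, had 16966 reads (330 CPM) in the SVZ and 1005 reads (45.6 CPM) in the cortex, a log2 ratio of 2.86 (2.76 to 2.95). *Ctnna2*, the neural alpha-catenin, had 133 and 255 CPM, a log2 ratio of -0.94 (-0.99 to -0.89).

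*Ctnnb1*, beta-catenin and also the effector of Wnt signalling, had 42141 reads (819 CPM) and 5919 reads (268 CPM) and a log2 ratio of 1.61 (1.57 to 1.65). *Jup*, plakoglobin, its relative, was at 5.13 and 22.1 CPM with a log2 ratio of -2.11 (-2.33 to -1.89). Of the p120 family, *Ctnnd2*, the delta-catenin of neurons, had 115 and 283 CPM, a log2 ratio of -1.30 (-1.35 to -1.25), whereas *Ctnnd1* had 85.9 and 59.5 CPM. *Vcl*, vinculin, which joins strained junctions to actin, had 31.4 and 13.4 CPM and a log2 ratio of 1.23 (1.05 to 1.42). *Pkp4* (-0.53), *Arvcf* (-0.03) and *Afdn* (0.03) lay within 2-fold, the last 2 with intervals that held 0. Of the 10 catenins and linkers averaging 1 CPM or more, 5 were higher in each library, with a median log2 ratio of 0.00.

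In the WAVE complex, none of 9 genes was 4-fold apart. *Wasf1* (57.5 and 213 CPM, log2 ratio -1.89) and *Abi2* (171 and 344 CPM, -1.01) were at least 2-fold higher in the cortex, and *Wasf2* (18.6 and 9.16 CPM, 1.02) in the SVZ. *Nckap1*, a core subunit, had 155 and 240.4 CPM. Among other members of the cadherin superfamily, *Celsr1*, a planar polarity cadherin, had 5047 reads (98.1 CPM) in the SVZ and 10 reads (0.454 CPM) in the cortex, a log2 ratio of 7.76 (6.88 to 8.82), while its relatives *Celsr2* (-0.17) and *Celsr3* (-0.72) lay within 2-fold. The giant cadherins divided too. *Fat1* had a log2 ratio of 2.85 (2.57 to 3.15), and *Fat3* and *Fat4* had -2.34 (-2.44 to -2.24) and -1.99 (-2.08 to -1.91). *Clstn2*, a calsyntenin of synapses, had 13.1 and 181 CPM and a log2 ratio of -3.79 (-3.91 to -3.67).

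The enzymes that place O-linked mannose on cadherins were also unequal. *Tmtc1* had 36 reads (0.700 CPM) in the SVZ and 1069 reads (48.5 CPM) in the cortex, a log2 ratio of -6.11 (-6.64 to -5.64). *Tmtc2*, named after its values were seen, had 851 reads (16.5 CPM) and 24 reads (1.09 CPM), a log2 ratio of 3.93 (3.34 to 4.58), and *Tmtc3* and *Tmtc4* lay within 2-fold. *Adam10*, the protease that sheds N-cadherin, was nearly even at 135 and 150.02 CPM. The 3 nectins above 1 CPM were within 2-fold.

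**Figure D4:**
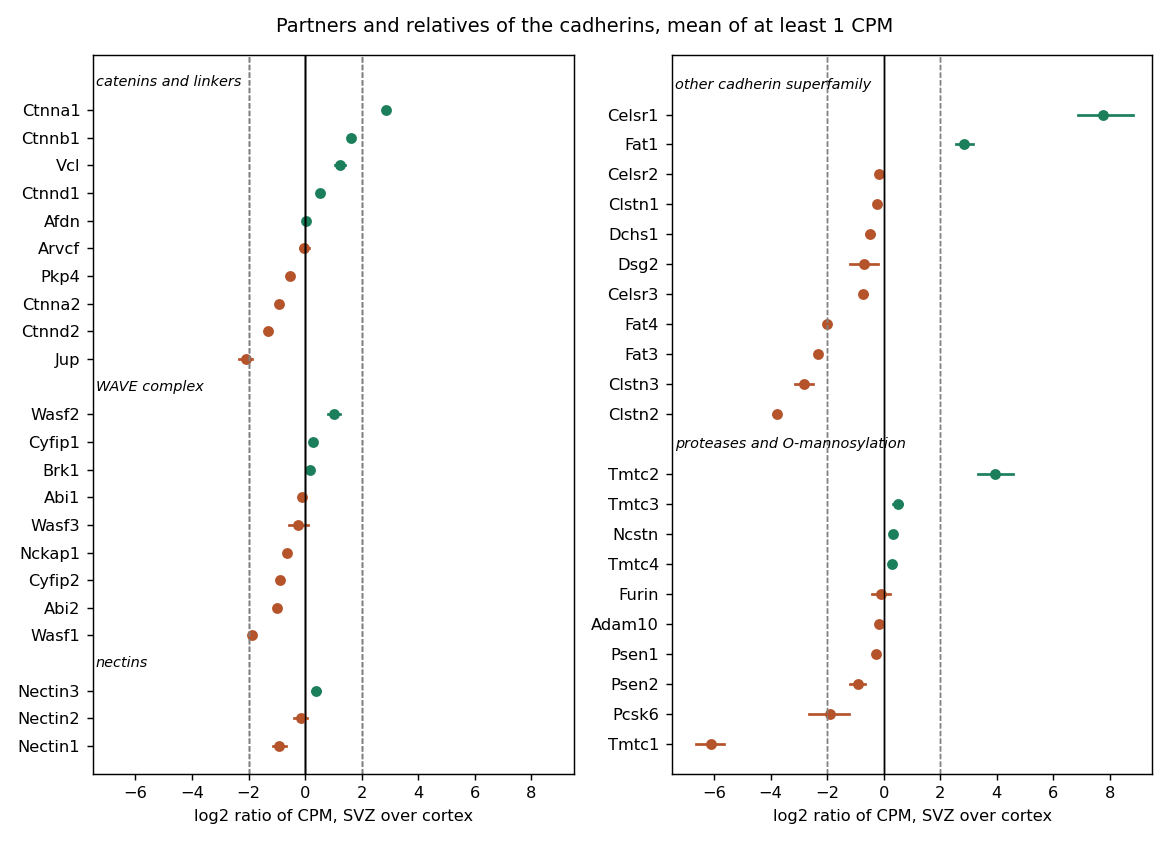
Log2 ratio of CPM, SVZ over cortex, for the 43 partner and relative genes averaging 1 CPM or more, by list; points, 95% counting intervals, colours and dashed lines at 4-fold are as for the cadherins. *Celsr1* (7.76) and *Tmtc1* (-6.11) lie farthest apart.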

How the data were processed

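The 2 libraries came from laser-cut pieces of haematoxylin- and eosin-stained sections, and were made with a low-input RNA kit and sequenced as paired ends. Per the labels and methods, the authors removed adapters with cutadapt 4.1, mapped read 1 to mm10 with STAR 2.7.9a and deposited whole read counts per gene, not normalized. The annotation version and any removal of duplicates are not given in the methods. STAR drops reads that overlap more than 1 gene or map to several places, which can undercount overlapping genes. The unstranded count column was used. The deposited table of both areas, which holds the same counts, CPM and the authors' fold changes, was not used.

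CPM was computed on gene-assigned reads. Where a gene had 0 reads, 3 were put in their place to give a bound, and no ratio is given where both counts are at or under 3 or where the floor gives no bound in the direction of the reads. Counts at 4-fold took in genes averaging 1 CPM or more. Every member is named. From the partner lists, the genes at least 2-fold apart that averaged 10 CPM or more and the 3 with the highest CPM are named. The relatives set beside them (*Ctnna2*, *Ctnnd1*, *Afdn*, *Nckap1*, *Celsr2*, *Celsr3*, *Pkp4*, *Arvcf*, *Tmtc3*, *Tmtc4* and *Adam10*) were named after their values were seen. Members, subfamilies and lists were chosen with earlier results of these data known. Gene positions and exon lengths came from GENCODE M21 (GRCm38), and all 35 members matched by symbol. Exons of 7 members (*Cdh8*, *Cdh9*, *Cdh12*, *Pcdh7*, *Pcdh8*, *Pcdh10* and *Pcdh19*) overlap another gene there. The sum of the 2 stranded columns changed the counts of 4 members and moved no log2 ratio above 1 CPM by more than 0.0133.

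Alternatives were edgeR 4.0.16 scaling (TMM, and upper quartile), the size factors of DESeq2 1.42.0, library totals that leave out the 10 genes with most reads, the stranded sum, thinning of the SVZ library to the cortex depth, a pseudocount of 1 CPM, other minimums and other call rules. The longest transcript as gene length was added after the data were seen. The software was Python 3.11.15 (scipy 1.17.1, numpy 2.4.6), with matplotlib 3.10.9 for plots, pandas 2.3.3 for tables, and R 4.3.3. The 4-fold calls and counting intervals were tested on simulated counts with planted differences and counting error only. The other steps were not tested in this way.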

Additional observations from a re-analysis of the deposited data

How the results depend on the processing

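No paired analysis was possible because SVZ and cortex are single libraries, and no replicate could be left out. Of 168 log2 ratios of members recomputed under the scalings, the stranded sum, thinning and the pseudocount, 144 stayed within their main counting interval, 24 did not, and none of the 24 members changed side. The 4 members higher in the cortex library by 4-fold were again 4 under each of these settings. The 3 on the SVZ side became 1 with a pseudocount of 1 CPM, which left *Cdh20* (*Pcdh18* came to 1.99 and *Pcdh12* to 1.62 on the log2 scale), and 1 among members averaging 10 CPM or more, which left *Pcdh18*, since the other SVZ members averaged less. The same minimum left 3 on the cortex side, without *Cdh9*, and with no minimum the counts were 4 and 6. With the whole counting interval past 4-fold they were 2, without *Pcdh18*. At 2-fold, with the main scaling, the counts were 6 (SVZ) and 8 (cortex). *Pcdh11x* fell under 2-fold with TMM (0.94), upper-quartile (0.93) and DESeq2 scaling (0.94). It also did so without the 10 most counted genes (0.998) and with the pseudocount (0.91), and *Pcdh20* with the pseudocount (-0.79). The median log2 ratio was 0.071 with no filter on low values, where 30 members had a ratio. TMM, upper-quartile and DESeq2 scaling shifted the median log2 ratio of all genes by at most -0.0988. Depth limits the 11 members under 1 CPM, for which most intervals are wide.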
